A study of Homo sapiens with 9 samples.

Results

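Cytokines, chemokines and the Toll-like receptors that drive their expression were followed in MDA-MB435S, a metastatic melanoma cell line. The set was a list of 48 genes in 11 roles, from the secreted ligands to the receptors, the adaptors and kinases below them, NF-kB with its inhibitors, and 2 effector enzymes. Of these, 46 were read by at least 1 probe set annotated to that gene alone, out of 19775 genes read in this way, and each gene stands by the brightest of its probe sets, averaged over the 9 arrays. The colony-stimulating factor CSF2 and the kinase IRAK4 were not analysed here. The 46 genes had 85 probe sets, and 22 of them had 1 each.

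Expression was read on 9 Affymetrix U133 Plus 2.0 arrays of stable MDA-MB435S clones selected with G418, 3 arrays per group. WWOX cells express wild-type WWOX, a tumor suppressor with WW domains that bind partner proteins. WFPA cells express a WWOX whose first WW domain is disrupted by point mutations, and EV cells carry an empty vector. The groups were taken from the array titles, because the field for the viral vector gives wild-type WWOX for the EV arrays and no construct for the WWOX arrays, and the EV titles carry the addition wox+. Neither separate cultures nor the number of clones is stated for the 3 arrays of a group, so all p-values measure only the spread between arrays. Differences between the stable clones and effects of the construct therefore cannot be told apart. In bulk RNA of this kind, fewer expressing cells and less RNA per cell cannot be told apart.

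Toll-like receptors recognise microbial and damage-associated molecules. Most of them pass the signal through the adaptor MYD88, the IRAK kinases and TRAF6 to NF-kB, which turns on cytokine and chemokine genes. IL-1 family cytokines such as IL18 are made as inactive precursors and are cut by the inflammasome protease caspase 1. Melanoma cells are known to produce several of these factors themselves, among them CXCL8 and IL24, also named melanoma differentiation-associated gene 7.

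At its brightest probe set WWOX averaged 10.66 in WWOX cells, 10.24 in WFPA cells and 8.94 in EV cells on the log2 scale of all values here. Its dimmer probe sets differed in order. EV cells were lowest in those with 8.18, 7.64 and 4.49 and with 5.13, 5.50 and 3.91 in WWOX, WFPA and EV cells. In the remaining ones EV cells were highest (8.87, 8.38 and 9.11) or near the others (6.11, 5.98 and 5.98). Arrays of a group correlated at 0.987 or more, and the spread between arrays (SD) was 0.285 in WWOX, 0.186 in WFPA and 0.206 in EV cells. Array medians lay at 6.03 to 6.05 and lower quartiles at 4.23 to 4.34. No background level is given, so differences that involve values below that quartile have an uncertain size. Among 9 melanocytic markers, MITF, SOX10 and S100B were called higher in WWOX cells than in the mean of both other groups. MITF averaged 13.43 in WWOX, 11.40 in WFPA and 11.87 in EV cells, SOX10 10.55, 5.33 and 4.89, and S100B 12.23, 6.31 and 5.55. The pigment genes PMEL, TYR, TYRP1 and MLANA had group means of at most 5.91. Among 12 fibroblast and 10 endothelial markers, 3 and 1 were called higher in the same comparison, and 1 and 0 lower. Their differences ran from -2.63 to 4.36 and from -0.43 to 1.04. Of all genes, 1.94% were called higher and 2.06% lower there.

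The NF-kB motif GGNNTTTCC (N is any base) was searched on both strands of the RefSeq promoters of GRCh38.p14, from 250 bases before to 50 after each gene start, as was the AP-1 site TGANTCA. These 2 letter strings do not overlap each other in the windows shown. The 6 windows below, bases -140 to -41 from the gene start on the coding strand, 5′ to 3′, are shown because 5 neutrophil-attracting chemokines share a match and only CXCL8 among them was called, and because IL32 was the called interleukin with a match. Capitals mark the matches.
CXCL8, chr4:73740429-73740528, plus strand: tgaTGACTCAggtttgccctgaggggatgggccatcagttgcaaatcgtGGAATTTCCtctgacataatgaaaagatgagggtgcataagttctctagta
CXCL1, chr4:73869253-73869352, plus strand: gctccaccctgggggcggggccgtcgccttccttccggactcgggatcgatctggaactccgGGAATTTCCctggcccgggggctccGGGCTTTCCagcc
CXCL2, chr4:74099236-74099335, minus strand: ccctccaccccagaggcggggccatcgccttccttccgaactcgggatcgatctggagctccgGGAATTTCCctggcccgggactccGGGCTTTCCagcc
CXCL3, chr4:74038730-74038829, minus strand: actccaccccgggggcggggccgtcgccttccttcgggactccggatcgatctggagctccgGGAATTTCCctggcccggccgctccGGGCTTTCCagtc
CXCL5, chr4:73998718-73998817, minus strand: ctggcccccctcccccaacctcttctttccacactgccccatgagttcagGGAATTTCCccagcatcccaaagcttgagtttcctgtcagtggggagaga
IL32, chr16:3065263-3065362, plus strand: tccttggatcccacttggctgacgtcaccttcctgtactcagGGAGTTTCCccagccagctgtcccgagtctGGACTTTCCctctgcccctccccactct

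The 3 groups were compared in pairs, and WWOX cells also with the mean of WFPA and EV cells. The aim was to find genes of inflammatory signaling that differ between WWOX cells and the others. Genes count as called where limma gave an adjusted p under 0.05 (Benjamini-Hochberg, over all probe sets) with a difference of at least 2-fold. Against the mean of both other groups, 2 of the 46 genes were called higher in WWOX cells, beside 1.94% of all genes, and 7 were called lower, beside 2.06% of all genes. Against EV cells alone, 2 were called higher (all genes 2.11%) and 3 lower (all genes 1.79%). Against WFPA cells alone, 2 were called higher (all genes 2.01%) and 8 lower (all genes 2.72%). In WFPA against EV cells, 2 were called higher (all genes 1.54%) and 0 lower (all genes 0.693%) from limma. There 9 passed the adjusted p with no fold limit and 14 an unadjusted p under 0.05, in either direction. Of all 19775 genes, 1704 and 4502 did so. These comparisons share arrays. The median log2 difference of the 46 genes was 0.03 against the mean of both groups, beside 0.04 over all genes, and 0.02, 0.03 and -0.02 in the other comparisons, beside 0.03, 0.07 and -0.04. In at least 1 of the 4 comparisons 10 genes were called, and 36 were called in none.

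**Figure D1:**
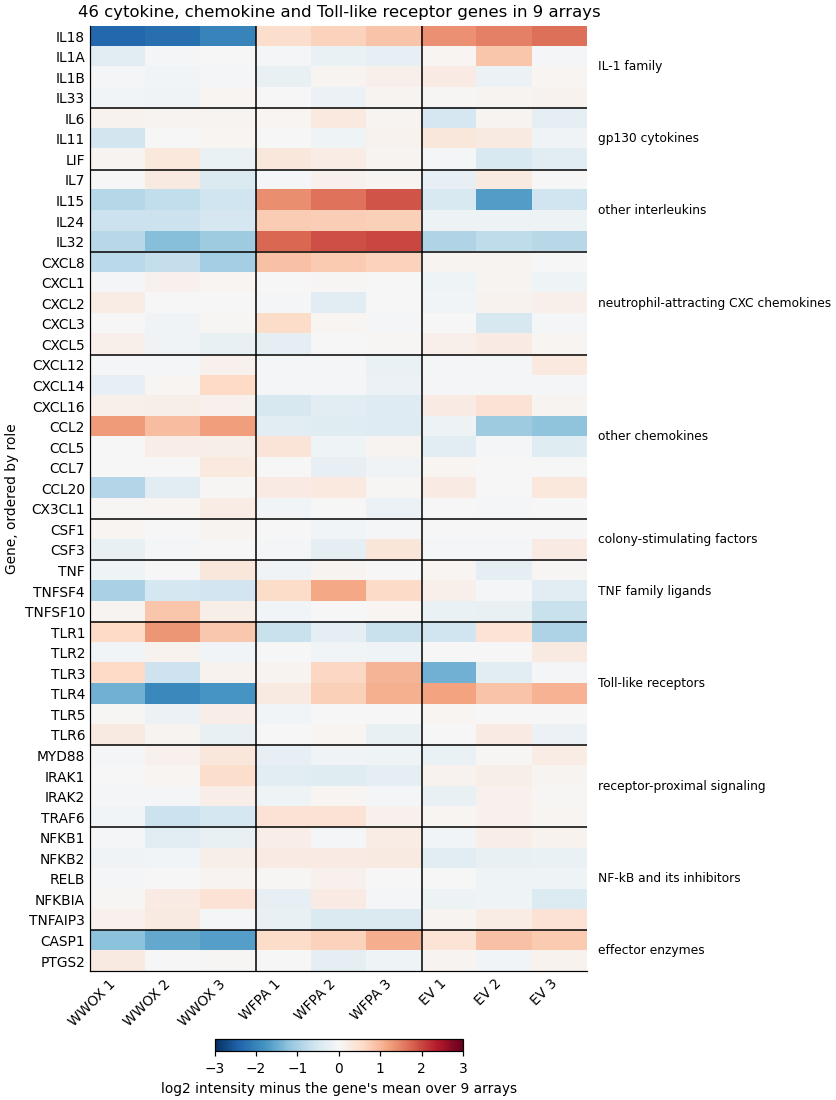
Log2 intensity of each of the 46 genes (rows, ordered by role) in each of the 9 arrays (columns, WWOX, WFPA and EV), minus the gene's mean over all arrays. IL18, TLR4 and CASP1 are low in all 3 WWOX arrays, CCL2 and TLR1 are high there, and IL15 and IL32 are high in the 3 WFPA arrays.

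IL18, the IL-1 family cytokine that induces interferon gamma in lymphocytes, was lower in WWOX cells than in either other group. Its log2 level was 3.41, 3.50 and 3.75 in the WWOX arrays, 6.29, 6.45 and 6.61 in the WFPA arrays and 7.12, 7.26 and 7.42 in the EV arrays. The 3 groups did not overlap, and the WWOX arrays all lay under the lower quartile. The difference was -3.71 against EV cells (95% interval -4.01 to -3.42, adjusted p = 4.27e-07 from limma) and -2.90 against WFPA cells (-3.19 to -2.60). WFPA against EV cells gave -0.82, which passed the adjusted p (0.00646 from limma) and not 2-fold. IL18 has 1 probe set.

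The other IL-1 family members did not pass the test in any comparison. IL1A, the precursor cytokine that also acts inside the cell, averaged 4.97 ± 0.18 in WWOX, 4.93 ± 0.10 in WFPA and 5.38 ± 0.48 in EV cells (SD, n = 3 arrays each). IL1B, the form that caspase 1 cuts, averaged 5.06, 5.12 and 5.16 in WWOX, WFPA and EV cells, and IL33, a nuclear alarmin, 2.79, 2.80 and 2.91. Against the mean of both groups the 3 genes differed by -0.18 to -0.06, with 95% intervals inside -0.60 to 0.23.

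TLR4, the receptor for bacterial lipopolysaccharide, was lower in WWOX cells too. Its log2 level was 5.99, 5.50 and 5.67 in the WWOX arrays, 7.71, 8.15 and 8.52 in the WFPA arrays and 8.64, 8.31 and 8.49 in the EV arrays. The WWOX arrays all lay below the 6 others, while WFPA and EV arrays overlapped. The difference was -2.76 against EV cells (95% interval -3.22 to -2.29, adjusted p = 4.22e-05 from limma) and -2.40 against WFPA cells (-2.87 to -1.94, adjusted p = 8.96e-05). WFPA against EV cells gave -0.35 (-0.82 to 0.11, adjusted p = 0.416).

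All 4 TLR4 probe sets were lower in WWOX cells. Against the mean of both groups, 3 of them were called, at differences of -2.58 for the brightest, -2.29 and -3.11. These 3 carry suffixes that mark probes matching more than 1 transcript or gene, so a share of signal from related transcripts cannot be told apart. The fourth averaged 5.77 in WWOX, 6.20 in WFPA and 6.43 in EV cells, a difference of -0.55 that passed the adjusted p (0.0034 from limma) and not 2-fold. The co-receptors for lipopolysaccharide were not called. LY96, which encodes MD-2 bound to TLR4, averaged 13.54 in WWOX, 13.71 in WFPA and 13.40 in EV cells, and CD14, which hands lipopolysaccharide to it, 5.51, 5.43 and 5.41, with adjusted p-values of 0.899 and 0.516 from limma against the mean of both groups.

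TLR1, which pairs with TLR2 to bind bacterial lipopeptides, was higher in WWOX cells. Its log2 level was 6.82, 7.55 and 7.05 in the WWOX arrays, 5.56, 5.97 and 5.56 in the WFPA arrays and 5.64, 6.65 and 5.30 in the EV arrays. The WWOX arrays lay above all others, with the second EV array closest to them and the WFPA and EV arrays overlapping. The difference was 1.28 against EV cells (95% interval 0.54 to 2.02, adjusted p = 0.0357 from limma) and 1.44 against WFPA cells (0.70 to 2.18, adjusted p = 0.0169). The TLR1 call did not hold in every fit without 1 array. Against EV cells it ended in 7 of 9 such fits (all but those without WWOX replicate 1 and EV replicate 2), at differences of 0.99 to 1.32 with adjusted p-values of 0.0515 to 0.115 from limma. In 3 of the 7 a WFPA array was left out, and the difference itself stayed at 1.28. Against WFPA cells it ended without WWOX replicate 2 (1.24), WFPA replicate 1 (1.38) or WFPA replicate 3 (1.38), with adjusted p-values of 0.056 to 0.0623, and against the mean of both groups without WWOX replicate 2 (1.15, adjusted p = 0.0508).

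The other Toll-like receptors had no called difference at their brightest probe sets. TLR6 and TLR10, which lie beside TLR1 in the RefSeq order of GRCh38.p14, averaged 5.90 and 5.03 in WWOX, 5.79 and 5.03 in WFPA and 5.88 and 5.04 in EV cells. TLR2, the partner of both TLR1 and TLR6, averaged 4.86, 4.81 and 4.97 in WWOX, WFPA and EV cells, and TLR5, the flagellin receptor, 5.16, 5.12 and 5.16. TLR3, the receptor for double-stranded RNA, had a wide spread between arrays, at 6.16 ± 0.61 in WWOX, 6.71 ± 0.48 in WFPA and 5.52 ± 0.75 in EV cells (SD, n = 3 each). A dimmer TLR3 probe set was steadier, with means of 6.30 in WWOX, 6.12 in WFPA and 4.98 in EV cells, and was called in WWOX against EV cells (1.33, adjusted p = 0.00385 from limma) and in WFPA against EV cells (1.15, adjusted p = 0.0126). At the brightest TLR3 probe set these differences were 0.64 and 1.19, with adjusted p-values of 0.394 and 0.151, and a TLR3 probe set read at 4.07 to 4.16 gave 0.09 and 0.06.

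CASP1, the inflammasome protease that cuts the precursors of IL18 and IL1B, was the effector enzyme that fell. CASP1 read 5.71, 5.41 and 5.30 in the WWOX arrays, 7.50, 7.64 and 8.03 in the WFPA arrays and 7.36, 7.81 and 7.72 in the EV arrays. As with TLR4, the WWOX arrays all lay below the others, which overlapped each other. The difference was -2.16 against EV cells (95% interval -2.56 to -1.76, adjusted p = 7.71e-05 from limma) and -2.25 against WFPA cells (-2.65 to -1.85, adjusted p = 5.28e-05). WFPA against EV cells gave 0.09 (-0.31 to 0.49, adjusted p = 0.849).

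**Figure D2:**
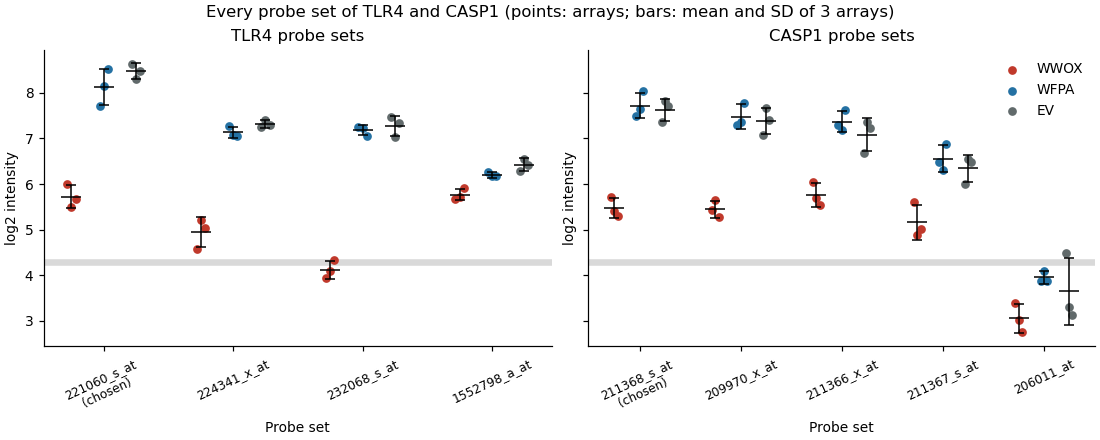
Log2 intensity (y axis) of every probe set of TLR4 and of CASP1 (x axis, brightest first), each array as a point with means and SDs (n = 3) as bars, for WWOX, WFPA and EV cells. The grey band is the range of the arrays' lower quartiles. WWOX arrays lie below the others in all 4 TLR4 probe sets and in 4 of the 5 CASP1 probe sets.

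Of the 4 other CASP1 probe sets, 3 were called lower in WWOX cells against the mean of both groups, with means of 5.16 to 5.76 in WWOX cells. The fifth, whose group means lay at 3.05 in WWOX, 3.95 in WFPA and 3.64 in EV cells, under the lower quartile, gave an adjusted p of 0.106 from limma. The 4 called probe sets carry suffixes that mark probes matching more than 1 transcript or gene, and 1 further probe set, annotated to CASP1 and its neighbour CARD16 together, was not used, so a share of the signal from related genes cannot be told apart. In the RefSeq order of GRCh38.p14, CASP4, CASP5, CASP1 and CARD16 lie next to each other on chromosome 11. CASP4, the protease that senses intracellular lipopolysaccharide, averaged 10.34 in WWOX, 12.08 in WFPA and 11.50 in EV cells and was called lower in WWOX cells against both (-1.75 against WFPA, -1.17 against EV cells, adjusted p = 1.01e-05 and 1.42e-04 from limma). CASP5 averaged 4.36, 4.50 and 4.20 in WWOX, WFPA and EV cells and had no called difference.

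Of 12 inflammasome genes and IL-1 antagonists outside the set, 0 were called higher against the mean of both groups (all genes 1.94%). The 2 called lower (all genes 2.06%) were CASP4 and the sensor NLRP1. NLRP1 averaged 5.54 in WWOX, 7.09 in WFPA and 6.44 in EV cells, a difference of -1.22 against the mean of both groups (adjusted p = 3.70e-04 from limma). The median of the 12 was 0.00. The adaptor PYCARD (4.67 in WWOX, 4.69 in WFPA and 4.65 in EV cells) and the pore protein GSDMD (9.62, 9.58 and 9.68) differed by 0.00 and -0.01 with 95% intervals inside -0.30 to 0.29. The soluble inhibitor of IL18, IL18BP, averaged 7.54, 7.49 and 7.57 in WWOX, WFPA and EV cells, and the receptor subunit IL18R1 lay at 3.34, 3.55 and 3.38, under the lower quartile in each group.

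IL18, TLR4 and CASP1 are also expressed by myeloid cells, so 17 leukocyte markers were read beside them. Of these, 0 were called higher (all genes 1.94%) and 1 lower (all genes 2.06%) in WWOX cells against the mean of both groups. The 1 was PTPRC, which encodes the leukocyte phosphatase CD45, with 5.48 in WWOX, 7.67 in WFPA and 9.88 in EV cells. The mean level of the 17 markers was 4.98 to 5.11 in WWOX arrays, 5.01 to 5.12 in WFPA arrays and 5.22 to 5.27 in EV arrays, and without PTPRC 4.94 to 5.09, 4.85 to 4.94 and 4.92 to 4.98. Of the 17 markers, 4 (CD3E, CD2, MS4A1 and S100A8) were under the lower quartile in all 3 groups and 13 were not. Among the 13, CD3D, CD79A, S100A9 and TYROBP averaged 6.49, 6.62, 6.32 and 6.49 in WWOX cells, 6.19, 6.52, 6.08 and 6.48 in WFPA cells and 6.40, 6.52, 6.10 and 6.55 in EV cells. The myeloid markers CD14, LYZ, ITGAM and CD163 averaged 5.51, 4.36, 6.02 and 4.31 in WWOX cells, 5.43, 4.37, 5.91 and 4.27 in WFPA cells and 5.41, 4.36, 6.02 and 4.31 in EV cells. The part of PTPRC-expressing cells in the falls of IL18, TLR4 and CASP1 was not tested.

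CCL2, the chemokine that attracts monocytes, was higher in WWOX cells. The log2 level of CCL2 was 7.75, 7.40 and 7.71 in the WWOX arrays, 6.16, 6.11 and 6.09 in the WFPA arrays and 6.31, 5.41 and 5.26 in the EV arrays. The WWOX arrays all lay above the others, and the first EV array lay above the WFPA arrays. The difference was 1.96 against EV cells (95% interval 1.41 to 2.51, adjusted p = 9.64e-04 from limma) and 1.50 against WFPA cells (0.95 to 2.05, adjusted p = 0.00325). CCL2 was called in every fit without 1 array in both comparisons, at differences of 1.76 to 2.29 against EV and 1.44 to 1.61 against WFPA cells. With Bonferroni adjustment or the 4-fold limit of the study's methods, CCL2 was called in neither.

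CCL7, the monocyte chemokine whose gene neighbours CCL2 in the RefSeq order, averaged 4.62 in WWOX, 4.40 in WFPA and 4.53 in EV cells and was not called. CXCL16, a membrane-bound chemokine, averaged 8.54 ± 0.02 in WWOX, 7.99 ± 0.08 in WFPA and 8.64 ± 0.18 in EV cells (SD, n = 3 each). It was thus the WFPA cells that stood apart, by -0.65 from EV cells (adjusted p = 0.00645 from limma) and with WWOX cells 0.56 above them (adjusted p = 0.00652), both under 2-fold. CCL20, which attracts cells with the receptor CCR6, averaged 4.36 ± 0.46, 4.93 ± 0.13 and 4.93 ± 0.16 in WWOX, WFPA and EV cells, and its difference of -0.57 from the mean of both groups missed the adjusted p (0.0616 from limma). At their brightest probe sets, CXCL12, CXCL14 and CX3CL1 differed by at most 0.23 between group means.

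CCL5, the chemokine for T cells and monocytes, differed between its probe sets. At its brightest probe set it averaged 6.57 in WWOX, 6.56 in WFPA and 6.21 in EV cells and was not called. At a dimmer one it averaged 4.82 ± 0.49 in WWOX, 5.23 ± 0.47 in WFPA and 3.62 ± 0.12 in EV cells (SD, n = 3 each), and was called in WWOX against EV cells (1.21, adjusted p = 0.0215 from limma) and in WFPA against EV cells (1.61, adjusted p = 0.00897). The EV level lay under the lower quartile. A CCL5 probe set read at 6.11 to 6.34 gave 0.22 and 0.17.

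CXCL8, the main neutrophil chemokine and a growth factor for melanoma cells, was lowest in WWOX cells. CXCL8 read 7.13, 7.24 and 6.94 in the WWOX arrays, 8.82, 8.74 and 8.65 in the WFPA arrays and 8.04, 8.02 and 7.94 in the EV arrays. The 3 groups did not overlap, and EV cells lay between the others. WWOX cells differed by -1.63 from WFPA cells (95% interval -1.86 to -1.41, adjusted p = 1.16e-05 from limma), and by -0.90 from EV cells (-1.12 to -0.67, adjusted p = 5.33e-04), which is under 2-fold. WFPA cells lay 0.74 above EV cells (adjusted p = 0.00312), also under 2-fold. The second CXCL8 probe set, at 5.36 in WWOX, 6.12 in WFPA and 5.71 in EV cells, had the same order, with a difference of -0.55 from the mean of both groups (adjusted p = 0.0355 from limma), and the mean of both probe sets gave -0.91, under 2-fold.

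The 4 other neutrophil-attracting chemokines were called in no comparison. CXCL1 (2.53 in WWOX, 2.47 in WFPA and 2.41 in EV cells) and CXCL2 (4.11, 3.91 and 4.10) lay under the lower quartile in all groups. CXCL3 averaged 5.20, 5.41 and 5.04 and CXCL5 5.41, 5.37 and 5.61 in WWOX, WFPA and EV cells. Against the mean of both groups the 4 genes differed by -0.08 to 0.11, with 95% intervals inside -0.37 to 0.35. Their receptors CXCR1 and CXCR2 differed by 0.03 and 0.09 from the same mean and were not called.

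The windows printed above give the sequence beside these values. The match GGAATTTCC begins at base -91 in CXCL8, -78 in CXCL1 and CXCL3, -77 in CXCL2 and -90 in CXCL5, and CXCL1, CXCL2 and CXCL3 hold a further match that begins at -53. CXCL8 was the only one of the 5 with an AP-1 match, TGACTCA at -137. Without gaps, the windows of CXCL1 and CXCL3 share 92 of 100 bases, and those of CXCL8 and CXCL1 share 27. This likeness is of promoters and says nothing of the probes. Whether the probes of CXCL1, CXCL2 and CXCL3 match each other's transcripts was not examined. Both CXCL8 probe sets carry suffixes that mark probes matching more than 1 transcript or gene.

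Of the 48 genes, 35 had an entry in the promoter table, all but IL18, LIF, IL7, IL15, CXCL16, CCL2, CCL5, CX3CL1, CSF1, CSF3, TLR1, RELB and CASP1. The NF-kB motif was found in 13 of them (37.1%) and in 2198 of all 35116 promoters (6.26%), and the AP-1 site in 6 (17.1%) and in 2707 of all promoters (7.71%). The shares of the set count genes and those beside them count promoters, so the units differ. The matched genes include IL6, CCL20, TLR2, NFKB1, NFKB2, NFKBIA and TNFAIP3, none of which was called. Of the 5 called genes with an entry, CXCL8 and IL32 held the NF-kB motif and CXCL8 the AP-1 site. A match is a stretch of letters and not a measured binding site.

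**Figure D3:**
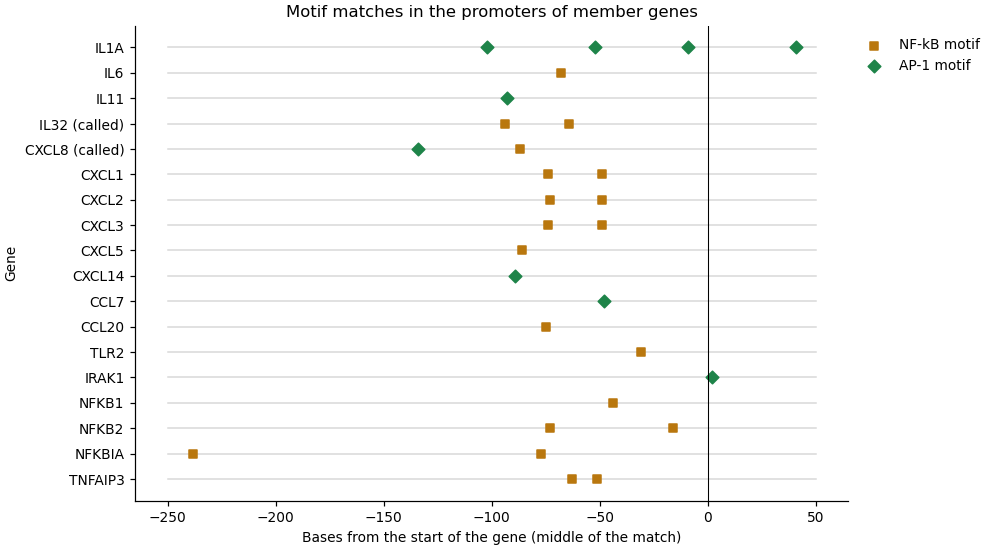
Position of each match to the NF-kB motif (squares) and the AP-1 site (diamonds) in the promoters of the genes that hold one (rows), in bases from the gene start (x axis). Most NF-kB matches lie within 100 bases before the start, and the genes called in a comparison are CXCL8 and IL32.

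IL15, which sustains natural killer and memory T cells, was highest in WFPA cells. Log2 levels of IL15 were 5.20, 5.31 and 5.45 in the WWOX arrays, 7.47, 7.70 and 7.96 in the WFPA arrays and 5.60, 4.40 and 5.46 in the EV arrays. The WFPA arrays lay above all others, and WWOX and EV arrays overlapped. WFPA cells lay 2.56 above EV cells (95% interval 1.91 to 3.20, adjusted p = 0.00104 from limma) and WWOX cells differed by -2.38 from WFPA cells (adjusted p = 6.13e-04). WWOX against EV cells gave 0.17 (-0.47 to 0.81, adjusted p = 0.757). A dimmer IL15 probe set, with 2.55 in WWOX, 5.27 in WFPA and 3.26 in EV cells, also put WFPA cells highest, but gave -0.71 in WWOX against EV cells (adjusted p = 0.0396).

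IL32, a cytokine with no counterpart in rodents that induces TNF and CXCL8, was highest in WFPA cells too. IL32 read 7.20, 6.77 and 6.97 in the WWOX arrays, 9.76, 9.98 and 10.03 in the WFPA arrays and 7.13, 7.27 and 7.22 in the EV arrays. The WFPA arrays again lay above all others, and WWOX and EV arrays overlapped. WFPA cells lay 2.72 above EV cells (95% interval 2.43 to 3.00, adjusted p = 6.28e-06 from limma), and WWOX cells differed by -2.94 from WFPA cells and by -0.23 from EV cells (-0.51 to 0.06, adjusted p = 0.303). IL15 and IL32 were counted as lower in WWOX cells against the mean of both groups (-1.11 and -1.59) through the WFPA level, and with WFPA and EV arrays fitted as 1 group their adjusted p-values were 0.372 and 0.213. The IL15 call against that mean also ended without WWOX replicate 2 (-1.10, adjusted p = 0.0509) or EV replicate 1 (-0.99).

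IL24, the cytokine named after its induction in differentiating melanoma cells, differed between all 3 groups. Its log2 level was 11.72, 11.72 and 11.86 in the WWOX arrays and 13.13, 13.09 and 13.09 in the WFPA arrays, and the EV arrays each held 12.22. The 3 groups did not overlap. The EV values are identical, as are the 3 values of a group in 801 probe sets, so the EV spread is not a measured one. WWOX cells differed by -1.34 from WFPA cells (95% interval -1.52 to -1.16, adjusted p = 9.19e-06 from limma), the called comparison, and by -0.45 from EV cells (adjusted p = 0.00661), while WFPA cells lay 0.89 above EV cells (adjusted p = 3.15e-04), both under 2-fold.

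TNFSF4, the OX40 ligand that costimulates T cells, was lowest in WWOX cells at low levels. Log2 levels of TNFSF4 were 3.47, 3.91 and 3.86 in the WWOX arrays, 4.98, 5.59 and 5.01 in the WFPA arrays and 4.58, 4.41 and 4.13 in the EV arrays. The groups did not overlap, but the WWOX arrays and 1 EV array lay under the lower quartile. WWOX cells differed by -1.45 from WFPA cells (adjusted p = 0.00132 from limma) and by -0.63 from EV cells (adjusted p = 0.0757). The difference of -1.04 from the mean of both groups was under 2-fold without WWOX replicate 1 (-0.90), WFPA replicate 2 (-0.94) or EV replicate 1 (-0.99).

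**Figure D4:**
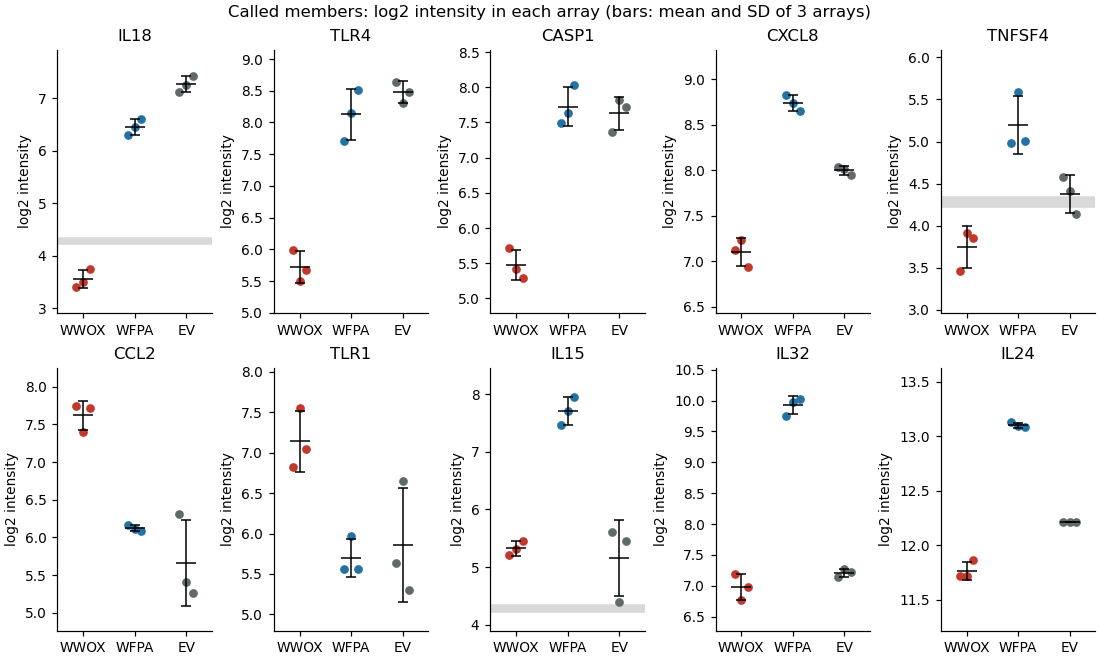
Log2 intensity (y axis) of the 10 genes called in at least 1 comparison, each array as a point, for WWOX, WFPA and EV cells, with means and SDs (n = 3) as bars. The grey band is the range of the arrays' lower quartiles and each panel has its own scale. IL18 lies at 3.41 to 3.75 in the WWOX arrays and at 6.29 to 7.42 in the others, and IL32 at 9.76 to 10.03 in the WFPA arrays and at 6.77 to 7.27 in the others.

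TNFSF10, the death ligand TRAIL, averaged 4.44 ± 0.41 in WWOX, 4.06 ± 0.07 in WFPA and 3.72 ± 0.26 in EV cells (SD, n = 3 each). Its difference of 0.72 from EV cells passed the adjusted p (0.0491 from limma) and not 2-fold, and the WFPA and EV levels lay under the lower quartile. TNF averaged 4.25, 4.18 and 4.12 in WWOX, WFPA and EV cells and was not called. The gp130 cytokines IL6 (5.90, 5.95 and 5.57), IL11 (5.89, 6.05 and 6.21) and LIF (8.89, 9.04 and 8.54) passed in no comparison, and their 95% intervals against the mean of both groups lay inside -0.60 to 0.42. At their brightest probe sets, IL7 and the colony-stimulating factors CSF1 and CSF3 differed by at most 0.14 between any pair of group means. A dimmer CSF1 probe set stood apart in WFPA cells, with 6.10 in WWOX, 6.88 in WFPA and 6.11 in EV cells. There WWOX cells differed by -0.78 from WFPA cells (adjusted p = 0.00232 from limma) and WFPA cells lay 0.77 above EV cells (adjusted p = 0.00566), both under 2-fold.

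Below the receptors no gene was called at its brightest probe set. MYD88, the adaptor, averaged 10.18 in WWOX, 9.88 in WFPA and 10.05 in EV cells, with no adjusted p under 0.05. TRAF6, the ubiquitin ligase that passes the signal on, averaged 6.99 ± 0.31 in WWOX, 7.74 ± 0.18 in WFPA and 7.50 ± 0.04 in EV cells (SD, n = 3 each), and its difference of -0.75 from WFPA cells passed the adjusted p (0.011 from limma) without reaching 2-fold, as did that of -0.63 from the mean of both groups (0.0128). IRAK1, the kinase above it, averaged 12.66 in WWOX, 12.14 in WFPA and 12.60 in EV cells, and its difference of 0.52 from WFPA cells passed likewise (adjusted p = 0.0268). IRAK2, a related kinase, averaged 5.29, 5.22 and 5.24 in WWOX, WFPA and EV cells. A dimmer IRAK2 probe set averaged 4.34 in WWOX, 5.21 in WFPA and 4.83 in EV cells, and its difference of -0.87 from WFPA cells passed the adjusted p (0.0378 from limma) and not 2-fold.

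NF-kB and its inhibitors held no called difference either. NFKB1, the p50 subunit precursor, averaged 7.11 in WWOX, 7.43 in WFPA and 7.39 in EV cells, and RELB 6.80, 6.83 and 6.69. NFKB2, the p100 precursor, averaged 8.51, 8.76 and 8.26, and WFPA cells lay 0.50 above EV cells (adjusted p = 0.0159 from limma). A dimmer NFKB2 probe set had another order, with 6.86 ± 0.46 in WWOX, 5.89 ± 0.10 in WFPA and 5.88 ± 0.31 in EV cells (SD, n = 3 each). Its WWOX arrays all lay above the others, and the difference of 0.98 from the mean of both groups (95% interval 0.53 to 1.42, adjusted p = 0.00958 from limma) was just under 2-fold. The inhibitor NFKBIA, itself a target of NF-kB, averaged 9.42 in WWOX, 9.17 in WFPA and 8.95 in EV cells. TNFAIP3, the inhibitor A20, averaged 8.74, 8.26 and 8.87, with WFPA cells differing by -0.61 from EV cells (adjusted p = 0.0208) and WWOX cells 0.48 above WFPA cells (adjusted p = 0.0284). At their brightest probe sets the 5 genes differed by -0.30 to 0.35 from the mean of both groups, with 95% intervals inside -0.55 to 0.66. PTGS2, the inducible cyclooxygenase, averaged 3.51, 3.27 and 3.44 in WWOX, WFPA and EV cells, under the lower quartile in each.

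**Figure D5:**
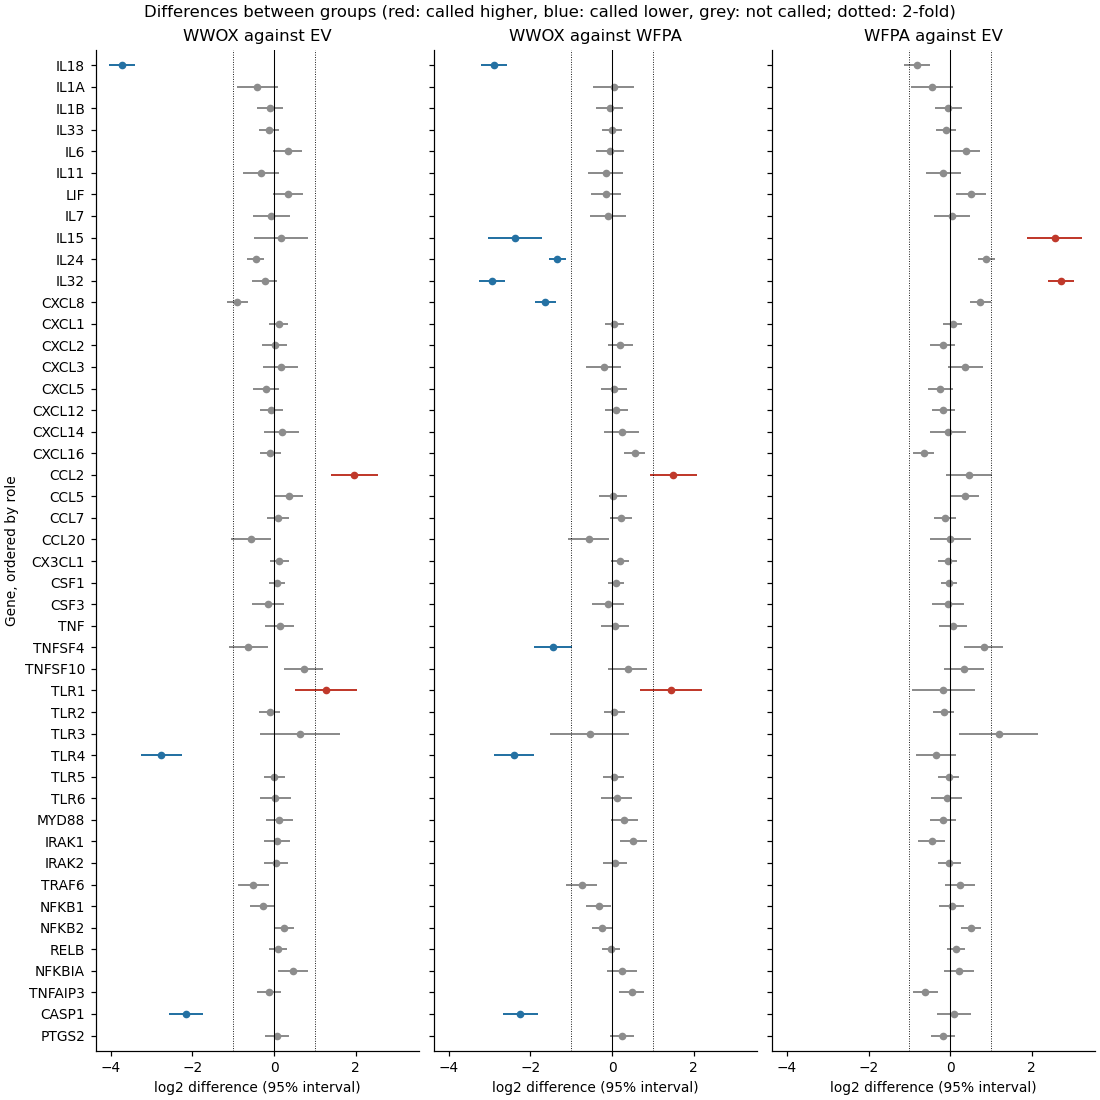
Log2 difference with its 95% interval from limma (x axis) for each of the 46 genes (rows, ordered by role) in WWOX against EV, WWOX against WFPA and WFPA against EV cells. Red and blue are genes called higher and lower, and dotted lines mark 2-fold. Against EV cells 2 genes are called higher and 3 lower in WWOX cells, and the kinases and NF-kB genes lie between the dotted lines.

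Lists of the neighbouring pathway genes outside the set were read in the same way, and their counts and medians are descriptions. Of 24 other Toll-like receptor signaling genes, 0 were called against the mean of both groups (median 0.08). The 17 other NF-kB pathway genes gave 0 calls as well (median -0.17). Of the 24 and the 17, 4 and 2 passed the adjusted p from limma with no fold limit, and 7 and 7 an unadjusted p under 0.05. Of all 19775 genes, 4023 passed that adjusted p and 6978 the unadjusted p. SIGIRR, a receptor that dampens Toll-like receptor signaling, averaged 12.17 in WWOX, 11.25 in WFPA and 11.12 in EV cells and was called against EV cells (1.04, adjusted p = 5.89e-05). IRF5, a transcription factor below these receptors, averaged 7.53, 7.31 and 6.24 and was called higher against EV cells in both WWOX (1.29) and WFPA cells (1.07, adjusted p = 0.042). RELA, the main NF-kB subunit, averaged 11.88 in WWOX, 11.92 in WFPA and 12.06 in EV cells and was not called.

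Of 22 other NF-kB target genes, 1 was called higher (all genes 1.94%) and 1 lower (all genes 2.06%) against the mean of both groups (median 0.06). The maturation marker CD83 averaged 10.09 in WWOX, 9.09 in WFPA and 9.04 in EV cells, a difference of 1.03 (adjusted p = 4.35e-04 from limma). The complement factor CFB averaged 5.30 in WWOX, 8.06 in WFPA and 5.89 in EV cells, and WFPA cells lay 2.17 above EV cells (adjusted p = 3.24e-04), the group in which IL15 and IL32 were highest as well. Of 10 prostaglandin genes, 0 were called against the mean of both groups (median 0.10). There 2 passed the adjusted p with no fold limit and 5 an unadjusted p under 0.05, beside 4023 and 6978 of all 19775 genes. Against EV cells alone, 0 of the 10 were called higher (all genes 2.11%) and 1 lower (all genes 1.79%).

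Of 36 cytokine and chemokine receptors, 1 was called higher (all genes 1.94%) and 1 lower (all genes 2.06%) against the mean of both groups (median 0.07). IL1RAP, the shared subunit of the IL-1 and IL-33 receptors, averaged 9.55 in WWOX, 7.68 in WFPA and 7.44 in EV cells and was called higher against EV (2.11, adjusted p = 4.54e-05 from limma) and WFPA cells (1.87). ACKR3, the scavenger receptor for CXCL12, averaged 8.72 in WWOX, 11.24 in WFPA and 8.89 in EV cells, so that its call of -1.34 came from the WFPA level, which lay 2.35 above EV cells (adjusted p = 6.99e-06). Receptors of the called ligands, IL15RA for IL15, CCR2 for CCL2 and TNFRSF4 for TNFSF4, differed by 0.17, -0.11 and -0.10 from the mean of both groups and were not called.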

How the data were processed

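MDA-MB435S RNA was read on 9 arrays (Affymetrix U133 Plus 2.0). Calibration and normalization were done by the authors with Partek Genomics Suite 6.5, and their deposited values are log2 intensities. The background and normalization method is not given in the sources used here, and no further normalization was applied. Of 54675 probe sets, 62 array controls were left out and 54613 tested. The platform annotation gives 1 gene for 41091, more for 1801 and none for 11721. A mean per group was fitted in limma 3.58.1 (R 4.3.3), with 6 residual and 3.04 prior degrees of freedom, and p-values were adjusted by Benjamini and Hochberg over all probe sets. The fit was tested on simulated data. Precision is limited by the number of arrays.

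The genes, roles and lists were chosen with earlier results of these data known. Each gene called in any comparison is given with all 9 values, the others by role, and of each list up to 4 genes called in WWOX against the mean of both groups and up to 2 called in WFPA against EV cells. Genes named beyond this rule (neighbours, co-receptors, receptors of called ligands, SIGIRR) were chosen after their values were seen. Promoters are RefSeq sequences of GRCh38.p14, read with pandas 2.3.3 in Python 3.11.15, and figures were drawn with matplotlib 3.10.9. Alternatives were Bonferroni adjustment and the 4-fold limit of the study's methods, no fold limit, a filter on dim probe sets, limma-trend, a robust prior, median centring, quantile normalization, other choices of probe set, fits of the compared groups alone, the replicate number as a block and each array left out in turn.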

Additional observations from a re-analysis of the deposited data

How the results depend on the processing

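The counts of called genes were 9 against the mean of both groups, 5 in WWOX against EV, 10 in WWOX against WFPA and 2 in WFPA against EV cells. Bonferroni adjustment gave 5, 3, 5 and 1 of them, the 4-fold limit 3, 3, 5 and 2, and no fold limit 11, 8, 14 and 9. Under Bonferroni adjustment or the 4-fold limit, CCL2 and TLR1 lost their calls and 0 genes were called higher in WWOX cells. With no fold limit, 4023, 2931, 4037 and 1704 of all 19775 genes passed. A filter that kept probe sets with at least 1 group mean above the median of all probe set means (6.03) left 24 of the 46 genes and 8, 5, 9 and 2 calls. The probe set of largest variance gave 9, 6, 10 and 3, the mean of all probe sets 8, 5, 10 and 2, and fits of the compared groups alone (or with EV and WFPA arrays as 1 group) 7, 4, 10 and 2. Leaving out 1 array gave 7 to 9, 4 to 5, 9 to 10 and 2 to 2 calls. With limma-trend, a robust prior, median centring, quantile normalization and the replicate number as a block the counts were 9, 5, 10 and 2. Same-numbered arrays of different groups did not deviate together more than others (correlations -0.052 to 0.035, beside -0.089 to 0.085 for different numbers). No pairing by number was seen, but a weak one would not show in this measure.

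Of 544 values of called genes under an alternative, 499 kept direction and call, 45 kept direction and lost the call, and 0 reversed. The 499 include the 26 values with no fold limit, which come from the same fit and kept their calls by construction. IL18 and CASP1 lost the call under no alternative, but both passed the filter on dim probe sets only through their WFPA and EV levels, as did TLR4. TLR1 passed that filter only through its WWOX level, and IL15 only through its WFPA level. The filter therefore does not bear on the calls of IL18, CASP1, TLR4, TLR1 and IL15, though their values under it are among the 499. TLR4 lost its call once, against WFPA cells with Bonferroni adjustment (adjusted p = 0.0515 from limma). CXCL8 lost it at the 4-fold limit and, against the mean of both groups, with the mean of its probe sets (-0.91). The other losses were in IL15, IL24, IL32, CCL2, TNFSF4 and TLR1. The causes were not tested. Levels under the lower quartile (4.23 to 4.34) limit what can be said of the 9 genes with a group mean there, IL18, TNFSF4, TNFSF10, TNF, CXCL1, CXCL2, CXCL12, IL33 and PTGS2.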
